A study of Homo sapiens with 9 samples.

Results

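The epidermal growth factor (EGF) family of ligands and their ERBB receptors were measured as RNA in HCT-15, a human cell line established from a colorectal adenocarcinoma, and in 2 stress-tolerant lines made from it. The genes were 6 ligands (EREG, AREG, HBEGF, TGFA, BTC and NRG1) and 4 receptors (EGFR, ERBB2, ERBB3 and ERBB4), taken by symbol from the 36018 genes counted. All 10 were found, and 9 passed the filter on low counts. The set was chosen by family membership and by the high CPM of EREG and AREG in the low-glucose-tolerant line, with earlier results of these data known. Levels in that line are therefore given for these 10 genes as a description, with no test.

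EGF family ligands are made as membrane-anchored precursors, and cell-surface proteases release the active domain. EREG (epiregulin), AREG (amphiregulin), HBEGF (heparin-binding EGF-like growth factor), TGFA (transforming growth factor alpha) and BTC (betacellulin) bind EGFR, and EREG, HBEGF and BTC also bind ERBB4. NRG1 (neuregulin) binds ERBB3 and ERBB4. Bound receptors pair with each other, ERBB2 serving as a partner with no known ligand of its own and ERBB3 as one with little kinase activity, and they signal through RAS, ERK and phosphoinositide 3-kinase. In the intestine these ligands drive epithelial renewal, and in colorectal cancer high EREG and AREG have been studied as markers of response to EGFR antibodies.

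RNA was sequenced from 9 libraries in 3 groups of 3. The low-glucose-tolerant line (HCT-15-Lowg) and the CoCl2-tolerant line (HCT-15-CoCl2) had each been adapted until tolerant, which the labels describe for both as culture at rising concentrations of the agent, and the control was untreated HCT-15. CoCl2 is a salt that mimics hypoxia. All 3 groups are labelled as wild type and were kept in RPMI medium with fetal bovine serum. The labels used here state no dose or duration, and not whether the stressor was present at harvest. There was 1 line for each tolerance, so what the stressor did and what long culture of that line did cannot be told apart. The labels do not say whether replicate libraries are separate cultures, and p-values therefore cover only the variation among libraries, some or all of it possibly technical.

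Total counts per library ranged from 25178615 to 32674687. Levels are given as CPM, a gene's counts relative to the library's total after scaling by the trimmed mean of M values (TMM). A gene with 3 counts had 0.0882 to 0.120 CPM, depending on the library. Low-glucose-tolerant replicate 2 stood apart from its group. On the second principal component it lay at -17.2, against -1.22 and 1.32 for replicates 1 and 3. Of 19 listed intestinal markers that were measured, 11 were under 1 CPM in every library, among them CDX2, the intestinal master factor, KRT20 and VIL1, and the identity of the line was not checked further. Summed over the list, intestinal markers, chiefly the keratins KRT8, KRT18 and KRT19, came to 2540 to 3434 CPM in low-glucose-tolerant, 1409 to 1705 in CoCl2-tolerant and 1405 to 1441 in control libraries. Other markers of that list moved against this sum. The 3 keratins rose and LGR5, GPA33 and CDH1 fell in the low-glucose-tolerant line, while KRT19 rose and LGR5, GPA33, EPCAM, KRT8 and CDH1 fell in the CoCl2-tolerant line. CDH1, the epithelial cadherin, was at 8.14 ± 1.48 CPM in low-glucose-tolerant, 1.41 ± 0.133 CPM in CoCl2-tolerant and 17.8 ± 0.465 CPM in control libraries. EPCAM, an epithelial adhesion molecule, was at 55.7 ± 14.4, 21.8 ± 1.99 and 54.7 ± 3.10 CPM in the same groups. Fibroblast markers summed to 156 to 196, 644 to 749.9 and 2491 to 2532 CPM in the same groups, nearly all of it COL1A1 and THY1, with 3 of 8 under 1 CPM throughout. COL1A1 and THY1 fell in both tolerant lines. In the low-glucose-tolerant line DCN rose, and COL1A2, COL3A1 and PDGFRB did not pass. In the CoCl2-tolerant line PDGFRB fell too, and COL1A2, COL3A1 and DCN did not pass. Leukocyte markers summed to at most 2.95 CPM and endothelial markers to at most 2.06 CPM in any library. The part of these marker differences in the results below was not tested. In such bulk samples, fewer cells of a type and less RNA per cell cannot be told apart.

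EREG, AREG and BTC lie together on the long arm of chromosome 4 (band 4q13.3) with the ligand gene EPGN. Their promoters are shown because these 3 ligands had the largest fold changes of the 10 genes in the low-glucose-tolerant line. The windows are RefSeq's (GRCh38.p14), from 250 bases before to 50 bases after the start, written 5′ to 3′ on the gene's own strand. EREG is on the plus strand at chr4:74364895-74365194, AREG on the plus strand at chr4:74444886-74445185 and BTC on the minus strand at chr4:74794474-74794773. Capitals mark matches on either strand to any motif searched.
EREG: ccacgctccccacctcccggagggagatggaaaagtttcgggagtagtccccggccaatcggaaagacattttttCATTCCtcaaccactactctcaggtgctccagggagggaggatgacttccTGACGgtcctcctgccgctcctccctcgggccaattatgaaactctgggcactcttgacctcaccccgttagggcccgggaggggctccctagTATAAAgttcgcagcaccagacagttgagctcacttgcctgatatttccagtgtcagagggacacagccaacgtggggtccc
AREG: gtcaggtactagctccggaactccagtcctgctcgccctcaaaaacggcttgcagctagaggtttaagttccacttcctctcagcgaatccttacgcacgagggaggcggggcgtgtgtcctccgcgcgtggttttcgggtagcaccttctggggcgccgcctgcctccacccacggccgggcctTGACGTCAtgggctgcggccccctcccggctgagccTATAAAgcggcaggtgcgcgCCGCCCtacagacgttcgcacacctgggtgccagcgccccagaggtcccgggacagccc
BTC: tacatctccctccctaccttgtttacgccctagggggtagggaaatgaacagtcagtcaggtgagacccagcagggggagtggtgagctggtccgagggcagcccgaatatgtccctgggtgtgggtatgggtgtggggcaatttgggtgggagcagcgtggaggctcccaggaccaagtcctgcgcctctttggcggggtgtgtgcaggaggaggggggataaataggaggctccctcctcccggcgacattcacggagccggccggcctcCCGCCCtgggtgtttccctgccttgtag

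The motifs searched were the full cyclic AMP response element (TGACGTCA), its core (TGACG, which the full element contains), the AP-1 site (TGANTCA), the TEAD site (GGAATG), the GC box (GGGCGG), the TATA box (TATAAA) and the E-box (CACGTG). EREG and AREG both held a TATA box, beginning 32 and 29 bases before the start, a motif found in 11.5% of 35116 windows of the same length, and BTC had no match to it. AREG held the full cyclic AMP response element 65 bases before its start, which 1.85% of windows hold. EREG held the core 125 bases before its start (24.6% of windows) and a TEAD match 175 bases before it (14.0%). AREG and BTC each held a GC box (45.0% of windows), beginning 9 bases before the start in AREG and at base 23 after the start in BTC. None of the 3 windows matched the AP-1 site (7.71% of windows) or the E-box (7.26%). These matches are descriptions of letters, not of binding.

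**Figure D1:**
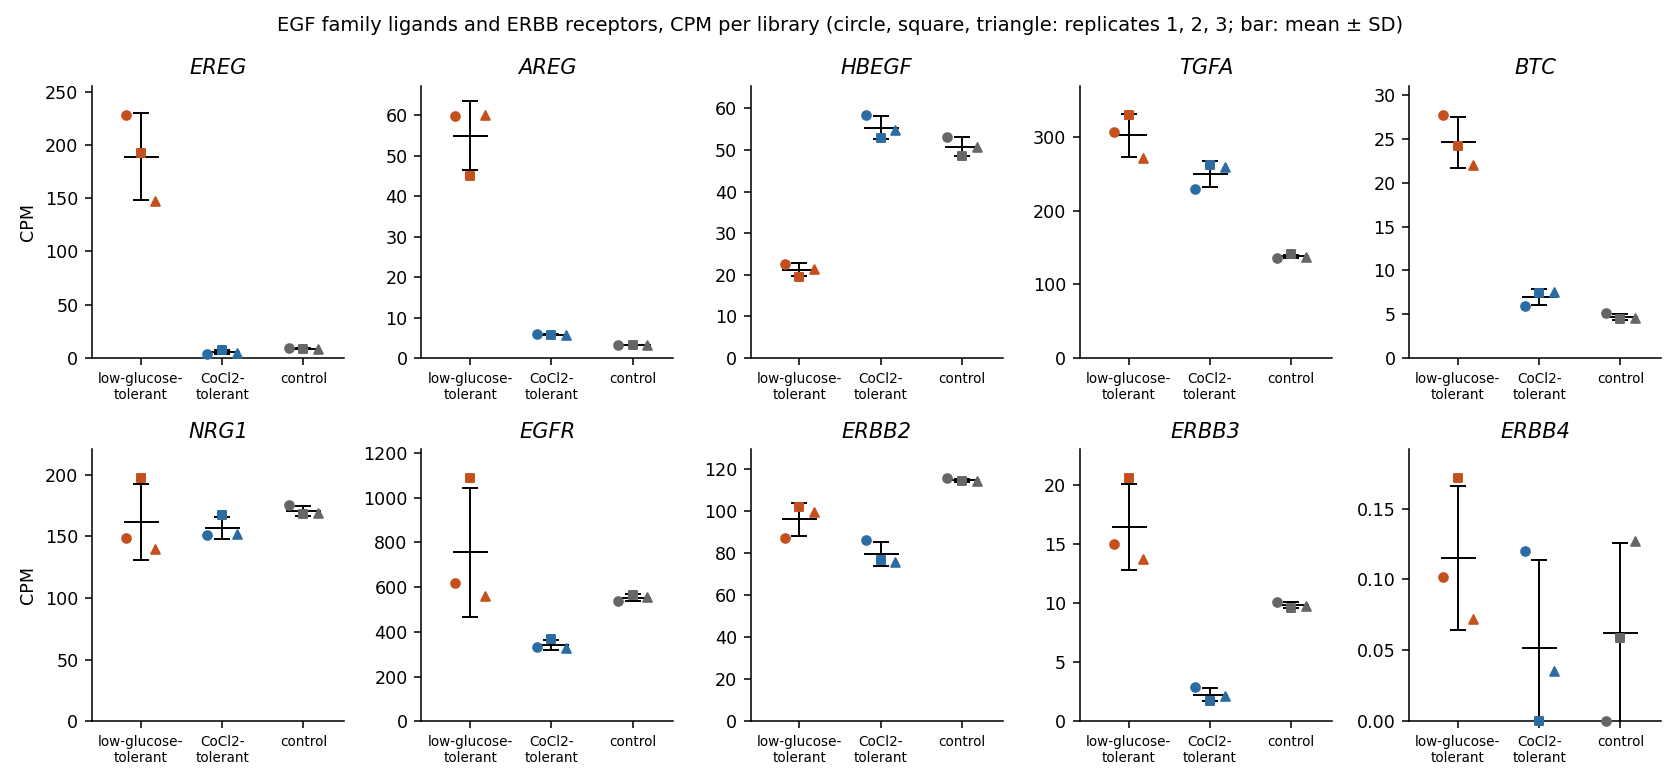
CPM of the 6 ligands and 4 receptors in each library, with low-glucose-tolerant, CoCl2-tolerant and control groups from left to right (circle, square and triangle are replicates 1, 2 and 3, the bar is the mean ± SD, n = 3). EREG, AREG and BTC were highest in the low-glucose-tolerant libraries, HBEGF was lowest there, and ERBB3 was lowest in the CoCl2-tolerant libraries.

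EREG had 228, 192 and 147 CPM in the low-glucose-tolerant libraries, against 9.29, 8.52 and 8.0 CPM in control libraries. Every low-glucose-tolerant library lay above every control library, and the means of 189 ± 40.7 and 8.61 ± 0.649 CPM (SD, n = 3 each) stood 22.0-fold apart (log2 fold change 4.46 ± 0.22, SE). In the CoCl2-tolerant libraries EREG had 3.61, 7.46 and 5.09 CPM, all below the control libraries. The CoCl2-tolerant mean was 5.38 ± 1.94 CPM, a log2 fold change of -0.67 ± 0.22 against control that passed edgeR's quasi-likelihood test (adjusted p = 0.0280). This call did not hold without control replicate 1 or 2 or CoCl2-tolerant replicate 1 or 3 (edgeR adjusted p = 0.0846, 0.0655, 0.106 and 0.0892, within a range of 1.10e-04 to 0.106 over all alternatives). The fold change without CoCl2-tolerant replicate 1, the library with the least EREG, was -0.45.

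AREG had 59.8, 45.1 and 60.1 CPM in low-glucose-tolerant libraries, against 3.15, 3.20 and 3.27 CPM in control libraries. The groups did not overlap, and the low-glucose-tolerant mean was 17.1-fold the control mean (log2 fold change 4.10 ± 0.15). Unlike EREG, AREG was also higher in the CoCl2-tolerant libraries, at 5.98, 5.67 and 5.65 CPM. That rise was 0.84 ± 0.15 on the log2 scale (edgeR adjusted p = 5.66e-04).

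BTC had 27.8, 24.2 and 22.0 CPM in low-glucose-tolerant libraries, 5.94, 7.46 and 7.49 CPM in CoCl2-tolerant libraries, and 5.13, 4.44 and 4.54 CPM in control libraries. All libraries of both tolerant lines lay above all control libraries. The log2 fold change against control was 2.39 ± 0.14 in the low-glucose-tolerant line. In the CoCl2-tolerant line BTC rose by 0.57 ± 0.15 (edgeR adjusted p = 0.00794).

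TGFA, the most abundant EGFR ligand message by CPM in every group, had 306, 329.9 and 271 CPM in low-glucose-tolerant libraries. It had 229.6, 262 and 259 CPM in CoCl2-tolerant libraries, and 136, 141 and 137 CPM in control libraries. The 3 groups were separate, in that order. TGFA rose by 0.86 ± 0.11 on the log2 scale in the CoCl2-tolerant line (edgeR adjusted p = 2.94e-05), and its log2 fold change in the low-glucose-tolerant line was 1.13 ± 0.11.

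HBEGF went the other way from the 4q13.3 ligands in the low-glucose-tolerant line. It had 22.6, 19.5 and 21.5 CPM there, against 53.0, 48.6 and 50.8 CPM in control libraries, with no overlap and a log2 fold change of -1.26 ± 0.11. In the CoCl2-tolerant libraries HBEGF had 58.4, 52.8 and 54.8 CPM, which overlapped the control libraries (log2 fold change 0.12 ± 0.10, edgeR adjusted p = 0.374). NRG1, the ERBB3 ligand among the 10, had 149, 197 and 139.7 CPM in low-glucose-tolerant libraries, 151, 167 and 152 CPM in CoCl2-tolerant libraries, and 176, 168 and 169 CPM in control libraries. Its log2 fold changes against control were -0.08 ± 0.12 in the low-glucose-tolerant and -0.12 ± 0.12 in the CoCl2-tolerant line, where every library lay below every control library but the test was not passed (edgeR adjusted p = 0.466). Its libraries overlapped those of control in the low-glucose-tolerant line, where the log2 fold change was -0.24 without replicate 2. For the 4 ligands EREG, AREG, BTC and TGFA the values without that replicate were 4.45, 4.23, 2.41 and 1.08, and for HBEGF -1.20.

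The receptors followed another pattern. EGFR had 619, 1087 and 561 CPM in low-glucose-tolerant libraries, 332, 369 and 328 CPM in CoCl2-tolerant libraries, and 537, 565 and 558 CPM in control libraries. EGFR fell in the CoCl2-tolerant line by 0.69 ± 0.19 on the log2 scale (edgeR adjusted p = 0.0113), with no overlap with control. Its low-glucose-tolerant libraries overlapped those of control. The log2 fold change of 0.45 ± 0.19 in that line rested on replicate 2, and was 0.10 without it. EGFR spans positions 55019021 to 55211628 of chromosome 7, ERBB2 39687914 to 39730426 of chromosome 17, ERBB3 56076799 to 56103505 of chromosome 12 and ERBB4 211375717 to 212538841 of chromosome 2 (GRCh38, GENCODE release 29). Of the ligands outside 4q13.3, TGFA spans 70447280 to 70554193 of chromosome 2 and HBEGF 140332843 to 140346631 of chromosome 5.

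ERBB3 had 15.0, 20.6 and 13.7 CPM in low-glucose-tolerant libraries, 2.89, 1.75 and 2.12 CPM in CoCl2-tolerant libraries, and 10.1, 9.58 and 9.78 CPM in control libraries. The groups did not overlap. ERBB3 fell by 2.13 ± 0.20 on the log2 scale in the CoCl2-tolerant line (edgeR adjusted p = 1.98e-06), to 2.25 ± 0.581 CPM there against 9.81 ± 0.246 CPM in control libraries. This was the largest fold change of the 9 tested genes in that line. The epithelial markers CDH1 and EPCAM fell there too (log2 fold changes -3.66 and -1.33, edgeR adjusted p = 3.38e-09 and 2.95e-05), and their part in the falls of ERBB3 and EGFR was not tested. Against control, the log2 fold change of ERBB3 in the low-glucose-tolerant line was 0.74 ± 0.17, or 0.56 without replicate 2.

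ERBB2 was highest in the control. It had 87.1, 101 and 99.1 CPM in low-glucose-tolerant libraries, 86.0, 76.6 and 75.6 CPM in CoCl2-tolerant libraries, and 115, 114 and 114 CPM in control libraries, and both tolerant lines lay wholly below the control. ERBB2 fell by 0.53 ± 0.10 on the log2 scale in the CoCl2-tolerant line (edgeR adjusted p = 0.00131), and its log2 fold change in the low-glucose-tolerant line was -0.26 ± 0.10. Of the exon bases of ERBB2, 7.41% overlap genes on the opposite strand, and the strand setting of the counting is not known. ERBB4 was under the filter, with 3, 5 and 2 counts in the low-glucose-tolerant libraries, 3, 0 and 1 in the CoCl2-tolerant libraries, and 0, 2 and 4 in the control libraries. Those counts are near the limit of detection in all groups, and no fold change is given.

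Of the 9 tested genes, 7 passed edgeR's test in the CoCl2-tolerant line, where 36.1% of all 17902 tested genes passed. AREG, TGFA and BTC rose (17.9% of all tested genes did), EREG, EGFR, ERBB2 and ERBB3 fell (18.2% did), and HBEGF and NRG1 did not pass. Libraries of the CoCl2-tolerant line did not overlap with control for 8 of the 9 genes, NRG1 lying below control in every library without passing the test and HBEGF overlapping. The same held for 57.2% of all tested genes, 28.3% lying above and 28.8% below. The median log2 fold change was -0.12 over the 9 genes and 0.01 over all tested genes. For the low-glucose-tolerant line these medians were 0.74 and -0.01, and nothing is read from the first, since the genes were chosen with it in view. There 5 of the 9 lay above and 2 below every control library, in a comparison where 73.3% of tested genes did not overlap (36.4% above and 36.9% below) and 69.2% passed the test. Low-glucose-tolerant and CoCl2-tolerant libraries did not overlap for 8 of the 9, NRG1 being the exception, where 63.1% of all tested genes did not overlap and 63.9% passed. In that comparison, log2 fold changes of low-glucose-tolerant over CoCl2-tolerant ran from -1.38 for HBEGF to 5.13 for EREG. All 3 comparisons share libraries in pairs, so their values are not independent of each other.

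**Figure D2:**
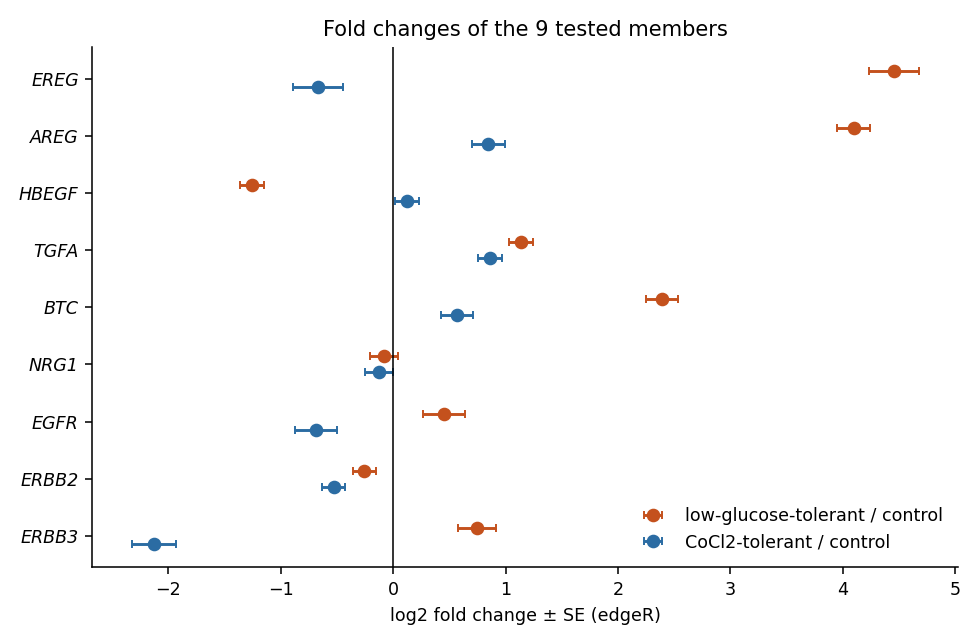
Log2 fold change ± SE against control of the 9 tested genes in the low-glucose-tolerant line (orange) and the CoCl2-tolerant line (blue). EREG, EGFR (whose low-glucose-tolerant and control libraries overlap), ERBB3 and HBEGF (whose CoCl2-tolerant and control libraries overlap) lie on opposite sides of zero in the 2 lines, while AREG, BTC and TGFA lie to the right of it in both.

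Per kilobase of annotated exon, the order of the messages could be compared between genes. In the low-glucose-tolerant line, TGFA (60.9 ± 5.94 CPM per kb) and EGFR (60.4 ± 23.0) led and did not differ beyond their spread. AREG (33.4 ± 5.20) and EREG (33.1 ± 7.11) came next, again within their spread, followed by NRG1 (14.3 ± 2.73). ERBB2 (9.29 ± 0.750), BTC (8.75 ± 1.03) and HBEGF (7.02 ± 0.514) came after them, ERBB2 and BTC within their spread of each other, and ERBB3 was at 1.82 ± 0.402.

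The order in the CoCl2-tolerant line was TGFA (50.4 ± 3.58 CPM per kb), EGFR (27.4 ± 1.81), HBEGF (18.3 ± 0.935), NRG1 (13.9 ± 0.796) and ERBB2 (7.70 ± 0.557). AREG (3.50 ± 0.112), BTC (2.47 ± 0.314), EREG (0.942 ± 0.339) and ERBB3 (0.249 ± 0.0643) were lower. For the control it was EGFR (44.2 ± 1.16 CPM per kb), TGFA (27.8 ± 0.494), HBEGF (16.8 ± 0.734), NRG1 (15.1 ± 0.353) and ERBB2 (11.1 ± 0.0703). AREG (1.95 ± 0.0363), BTC (1.67 ± 0.133), EREG (1.51 ± 0.113) and ERBB3 (1.09 ± 0.0272) came last, with BTC and EREG within their spread of each other. ERBB4 was at or under 0.00885 CPM per kb in every group mean. With the longest coding transcript as the length, NRG1 exceeded HBEGF in all groups (27.3, 26.5 and 28.8 against 8.88, 23.2 and 21.3 CPM per kb in low-glucose-tolerant, CoCl2-tolerant and control libraries). ERBB2, at 23.9 CPM per kb, then also exceeded HBEGF in the control.

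Summed per kilobase, messages for the 7 ligands that bind EGFR (the 5 above, EGF and EPGN) came to 143 ± 11.8 CPM per kb in low-glucose-tolerant, 75.9 ± 3.15 in CoCl2-tolerant and 49.9 ± 0.513 in control libraries. EREG and AREG together made up 49.0, 42.7 and 47.1% of that sum in the low-glucose-tolerant libraries. They made up 5.89, 6.09 and 5.57% in CoCl2-tolerant libraries and 7.01, 6.93 and 6.82% in control libraries. HBEGF made up 4.91 ± 0.435% in low-glucose-tolerant, 24.2 ± 2.26% in CoCl2-tolerant and 33.7 ± 1.18% in control libraries. TGFA held 42.6 ± 3.60%, 66.3 ± 2.01% and 55.7 ± 1.47% in those groups. The ligand messages of the control were thus mainly TGFA and HBEGF, and those of the low-glucose-tolerant line mainly TGFA, AREG and EREG. Among receptor messages per kilobase, EGFR held 83.6 ± 3.85% in low-glucose-tolerant, 77.5 ± 2.04% in CoCl2-tolerant and 78.4 ± 0.582% in control libraries. ERBB3 held 2.60 ± 0.263%, 0.708 ± 0.193% and 1.93 ± 0.0852% in the same groups. With the longest coding transcript as the length, EGFR held 76.1 ± 5.29%, 67.3 ± 2.53% and 68.8 ± 0.729% in those groups.

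**Figure D3:**
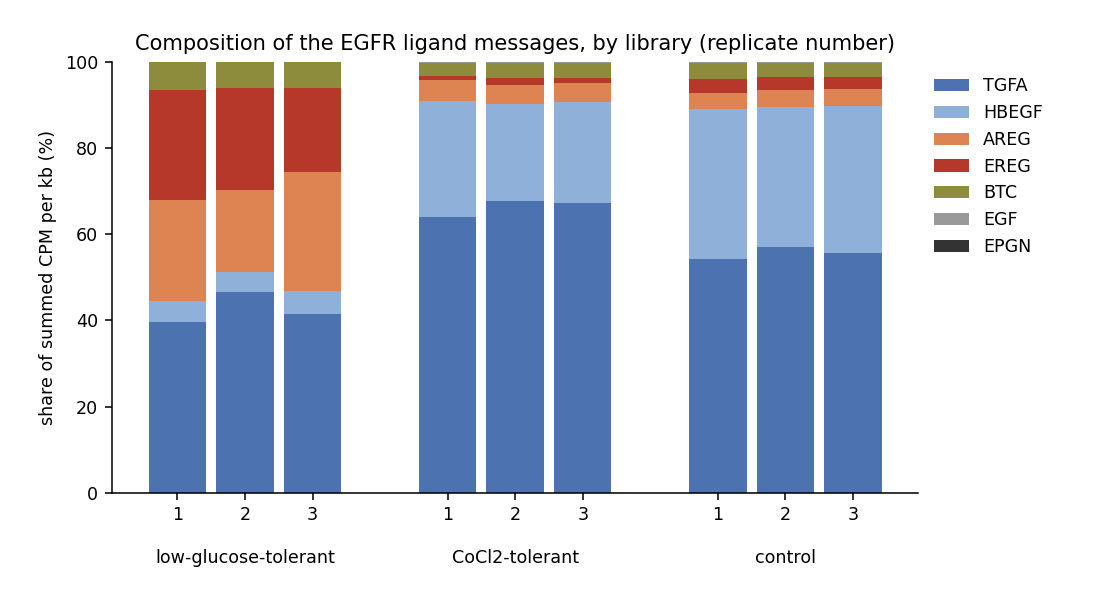
Share of each EGFR ligand in the summed CPM per kb of 7 ligand messages, for each library of the low-glucose-tolerant, CoCl2-tolerant and control groups from left to right. AREG and EREG fill 42.7 to 49.0% of the bars in the low-glucose-tolerant libraries and at most 7.01% elsewhere.

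The ligands of the family outside the chosen 10 were mostly scarce. NRG2, a neuregulin, rose in the low-glucose-tolerant line, to 13.1 ± 2.19 CPM against 5.54 ± 0.598 CPM in the control (log2 fold change 1.24 ± 0.15, edgeR adjusted p = 5.77e-06). NRG2 fell in the CoCl2-tolerant line, to 3.73 ± 0.389 CPM (log2 fold change -0.57 ± 0.16, edgeR adjusted p = 0.0149), a call that ended without control replicate 3 (0.0697) or CoCl2-tolerant replicate 3 (0.0731). NRG4, an ERBB4 ligand, showed the opposite pair of directions. It was at 0.115 ± 0.0771 CPM in low-glucose-tolerant, 1.67 ± 0.267 CPM in CoCl2-tolerant and 0.542 ± 0.137 CPM in control libraries, with edgeR adjusted p = 6.20e-04 for the fall and 8.08e-04 for the rise. Of its exon bases, 38.1% overlap a gene on the opposite strand. EGF was at 0.890 ± 0.150, 1.59 ± 0.0655 and 1.0 ± 0.202 CPM in the same 3 groups. Its rise in the CoCl2-tolerant line (edgeR adjusted p = 0.0354) was lost with DESeq2 (0.0706), with no filter (0.0720) and without control replicate 2 or 3 or any CoCl2-tolerant library (0.0698 to 0.135). EPGN had 12 counts over the low-glucose-tolerant, 5 over the CoCl2-tolerant and 2 over the control libraries, and NRG3 had 1 in each group.

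Around the high ligands of 4q13.3, some neighbours rose in the low-glucose-tolerant line and others did not. EREG spans positions 74365143 to 74388751 of chromosome 4 (GRCh38, GENCODE release 29), AREG 74445134 to 74455009 and BTC 74744759 to 74794686. EPGN, whose start lies 56.7 kb before that of EREG, stayed near the limit of detection. Of 16 listed neighbours, EPGN among them and CDKL2 the farthest (1265.6 kb from the EREG start), 11 were tested. Of these, 6 rose in the low-glucose-tolerant line (CXCL8, CXCL3, CXCL2, PARM1, RCHY1 and THAP6), ODAPH fell, and CXCL1, CXCL5, MTHFD2L and CDKL2 did not pass. Of all tested genes, 34.6% rose and 34.6% fell in that line. PARM1 was at 0.709 CPM there, against 0.112 CPM in CoCl2-tolerant and 0.125 CPM in control libraries. It passed the filter through its low-glucose-tolerant counts, so nothing is read from its rise.

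CXCL8, the neutrophil chemokine interleukin 8, was the neighbour with the largest rise, at 81.7 ± 24.4 CPM in the low-glucose-tolerant line against 6.43 ± 0.654 CPM in the control (log2 fold change 3.67 ± 0.22, edgeR adjusted p = 3.40e-09). MTHFD2L, the gene between the chemokines and EPGN, was at 5.84 CPM in low-glucose-tolerant and 5.03 CPM in control libraries on average. CXCL8, CXCL2 and RCHY1 rose in the CoCl2-tolerant line, ODAPH and CDKL2 fell and 6 did not pass. Of all tested genes, 17.9% rose and 18.2% fell in that line. CXCL8 was at 16.9 ± 3.78 CPM there (log2 fold change 1.40 ± 0.21, edgeR adjusted p = 1.78e-04). The CXCL2, RCHY1 and ODAPH calls in that line (edgeR adjusted p = 0.0350, 0.0276 and 0.0196) were each lost in 5 of the alternatives, at most at 0.133 for CXCL2, 0.0941 for RCHY1 and 0.105 for ODAPH. CXCL2 and RCHY1 were lost without any 1 of the control libraries and without CoCl2-tolerant replicate 1, CXCL2 also without replicate 3 and RCHY1 without replicate 2 of that line. ODAPH was lost with no filter and without control replicate 2 or 3 or CoCl2-tolerant replicate 1 or 3.

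**Figure D4:**
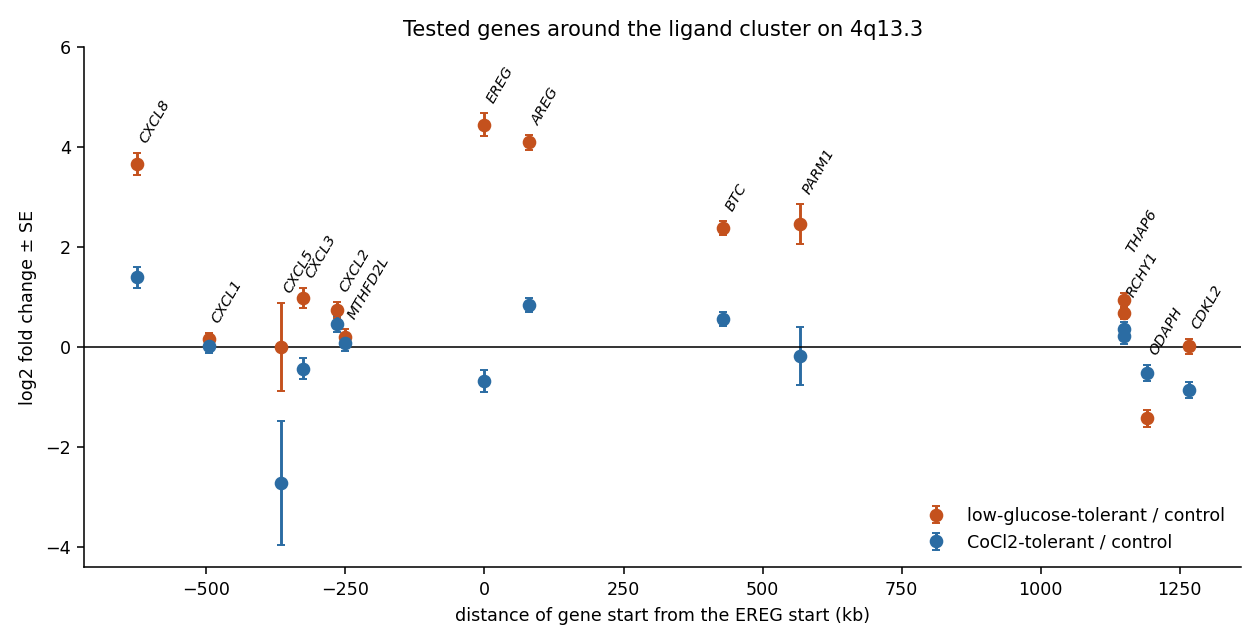
Log2 fold change ± SE against control for the tested genes around the ligand cluster on 4q13.3, by the distance of their start from that of EREG in kilobases. The low-glucose-tolerant line is orange and the CoCl2-tolerant line blue. EREG (4.46), AREG (4.10) and CXCL8 (3.67) stand highest in the low-glucose-tolerant line, with genes near zero between CXCL8 and EREG.

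The genes that release the ligands did not move as a block. Of 12 listed proteases, inhibitors and trafficking factors, 11 were tested, TIMP3 being under the filter. There were 6 that rose in the low-glucose-tolerant line (ADAM8, ADAM15, ADAM17, RHBDF1, RHBDF2 and FRMD8), 4 fell (ADAM9, ADAM10, ADAM12 and ADAM19) and RHBDL2 did not pass. The median log2 fold change was 0.30 against -0.01 over all tested genes, of which 34.6% rose and 34.6% fell. The FRMD8 call (edgeR adjusted p = 0.0383) was lost in 10 of 16 alternatives, up to 0.158, among them leaving out any 1 control library, low-glucose-tolerant replicate 2 or 3, or CoCl2-tolerant replicate 3. ADAM10, the main sheddase of BTC and EGF in mouse cells, fell to 135 ± 24.0 CPM, against 372 ± 3.58 CPM in the control (log2 fold change -1.46 ± 0.13, edgeR adjusted p = 2.70e-07). ADAM12, a protease linked to HBEGF release in mouse heart, fell to 12.4 ± 2.68 CPM, against 59.1 ± 1.55 CPM in the control (edgeR adjusted p = 6.04e-09). ADAM8 was at 10.5 ± 1.17 CPM against 3.68 ± 0.0662 CPM in the control, a rise of 1.52 ± 0.14 on the log2 scale (edgeR adjusted p = 2.51e-07). Among the genes that rose were ADAM17, the main sheddase of AREG, EREG, TGFA and HBEGF in mouse cells, and its partners RHBDF1 and RHBDF2.

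ADAM8, ADAM12 and ADAM15 rose in the CoCl2-tolerant line, ADAM10 and ADAM19 fell and 6 did not pass, with a median log2 fold change of 0.07. Over all tested genes, 17.9% rose and 18.2% fell in that line. ADAM19 fell to 18.3 ± 1.22 CPM, against 68.2 ± 3.44 CPM in the control (log2 fold change -1.90 ± 0.12, edgeR adjusted p = 6.25e-08). ADAM10 was at 222 ± 24.6 CPM, a log2 fold change of -0.75 ± 0.13 (edgeR adjusted p = 6.11e-04). ADAM12 rose there to 88.2 ± 7.30 CPM (edgeR adjusted p = 0.00406), and its low-glucose-tolerant level differed from that by -2.83 ± 0.15 on the log2 scale, which passed edgeR's test (adjusted p = 1.21e-09).

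Of 16 genes listed for receptor attenuation, 15 were tested, CBLC not being analysed here. The list, called attenuators below, was not limited to genes that damp the receptors, and falls in it are not read as lost attenuation. ERRFI1, SH3KBP1, RNF41, HGS and STAM rose in the low-glucose-tolerant line, LRIG2, CBLB, SOCS4, SOCS5 and USP8 fell and 5 did not pass (median log2 fold change 0.12). These counts are near the shares over all tested genes in that line, of which 34.6% rose and 34.6% fell. The CBLB and SOCS5 calls there (edgeR adjusted p = 0.0463 and 0.0477) were lost in 7 and 9 of 16 alternatives, up to 0.218 and 0.183. Both were lost without any 1 control library, low-glucose-tolerant replicate 3 or CoCl2-tolerant replicate 2 or 3, and CBLB also without low-glucose-tolerant replicate 1. ERRFI1 and HGS rose in the CoCl2-tolerant line, LRIG2, LRIG3, CBL and CBLB fell and 9 did not pass (median -0.11). Over all tested genes, 17.9% rose and 18.2% fell in that line. ERRFI1, the feedback inhibitor MIG6 that binds the EGFR kinase, had 80.4 ± 4.81 CPM in low-glucose-tolerant, 49.6 ± 5.31 CPM in CoCl2-tolerant and 22.6 ± 0.146 CPM in control libraries. Its rises were 1.83 ± 0.11 and 1.14 ± 0.11 on the log2 scale in the low-glucose-tolerant and CoCl2-tolerant lines (edgeR adjusted p = 4.15e-09 and 3.39e-06). RNF41, the ubiquitin ligase NRDP1 that degrades ERBB3, rose in the low-glucose-tolerant line, to 160.2 ± 15.8 CPM against 57.1 ± 0.166 CPM in the control (edgeR adjusted p = 2.40e-08). CBL, the ubiquitin ligase of activated EGFR, fell in the CoCl2-tolerant line beside EGFR itself, to 38.4 ± 1.49 CPM against 79.0 ± 6.86 CPM in the control (edgeR adjusted p = 0.00380).

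Of 33 adaptors and downstream kinases, 32 were tested. PIK3R2 was under the filter, and other annotated genes cover 87.2% of its exon bases. The low-glucose-tolerant line had 9 that rose, 11 that fell and 12 that did not pass, and in the CoCl2-tolerant line 2 rose, 7 fell and 23 did not pass. Over all tested genes, 34.6% rose and 34.6% fell in the low-glucose-tolerant line, and 17.9% rose and 18.2% fell in the CoCl2-tolerant line, so these counts are near those shares in the low-glucose-tolerant line. The 7 falls became 3, 4 and 3 without control replicates 1, 2 and 3, 11 without low-glucose-tolerant replicate 2, and 16 in a fit of only the CoCl2-tolerant and control libraries. The list's medians were -0.10 in the low-glucose-tolerant and -0.24 in the CoCl2-tolerant line. SHC1, the adaptor that links ERBB receptors to RAS, rose in the low-glucose-tolerant line, to 506 ± 74.4 CPM against 173 ± 5.29 CPM in the control (log2 fold change 1.55 ± 0.12, edgeR adjusted p = 3.88e-08). Other annotated genes cover 15.2% of SHC1 exon bases. GRB7, an adaptor of ERBB2 and ERBB3, fell in both lines, to 11.7 ± 1.61 CPM in low-glucose-tolerant and 18.8 ± 1.29 CPM in CoCl2-tolerant libraries, against 32.6 ± 1.89 CPM in control libraries (edgeR adjusted p = 1.34e-07 and 2.21e-04). The regulatory subunit PIK3R3 fell in the low-glucose-tolerant line to 3.65 ± 0.616 CPM, against 13.9 ± 0.689 CPM in the control (edgeR adjusted p = 2.69e-08), and 17.4% of its exon bases lie in other genes too. In the CoCl2-tolerant line, HRAS and the ERK kinase MAP2K1 rose, MAP2K1 to 85.2 ± 4.59 CPM against 44.5 ± 3.49 CPM in the control (edgeR adjusted p = 1.39e-05).

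ERK target and feedback genes split into groups in the low-glucose-tolerant line. Of 21 tested, 17 rose, IER3 did not pass, and EGR1, FOS and EPHA4 fell (median log2 fold change 1.87, against -0.01 over all tested genes). Over all tested genes, 34.6% rose and 34.6% fell in that line. Like the other pathway lists, this list was chosen with earlier results of these data known, so its counts and median are a description. The SPRY1 rise (edgeR adjusted p = 0.0175) was lost in 3 of 16 alternatives, up to 0.0742. ETV5, an ETS factor induced by ERK, rose to 169.7 ± 12.1 CPM, against 12.3 ± 0.233 CPM in the control (log2 fold change 3.78 ± 0.11, edgeR adjusted p = 7.81e-12). SPRY4, a Sprouty feedback inhibitor, rose to 16.3 ± 2.59 CPM, against 1.78 ± 0.325 CPM in the control (edgeR adjusted p = 1.26e-09). EGR1 and FOS, both immediate early factors, went the other way, while MYC and FOSL1 rose (log2 fold changes 2.26 and 1.43, edgeR adjusted p = 4.18e-10 and 4.38e-08). EGR1 fell to 1.92 ± 0.440 CPM, against 49.2 ± 3.45 CPM in the control (log2 fold change -4.67 ± 0.16, edgeR adjusted p = 2.78e-11), and FOS to 2.10 ± 0.0829 CPM, against 40.9 ± 1.60 CPM in the control (edgeR adjusted p = 9.52e-12).

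Among the same 21 genes, 10 rose in the CoCl2-tolerant line, EGR1 and FOS fell and 9 did not pass (median log2 fold change 0.34). Over all tested genes, 17.9% rose and 18.2% fell in that line. The FOS call (edgeR adjusted p = 0.00907) was lost without control replicate 2 or CoCl2-tolerant replicate 3, up to 0.0579. The EPHA2 rise (edgeR adjusted p = 0.0352) was lost in 5 of 16 alternatives, up to 0.142, among them leaving out any 1 control library. The SPRY2 rise (edgeR adjusted p = 0.00668) was lost without control replicate 1 (0.0510). Leaving out a library, 8 to 11 of the genes rose. FOSL1, a FOS relative that accumulates with sustained ERK activity, rose to 227 ± 8.75 CPM, against 93.1 ± 5.62 CPM in the control (edgeR adjusted p = 9.54e-07). DUSP6, an ERK phosphatase, was at 10.6 ± 0.451 CPM against 4.47 ± 0.341 CPM in the control (edgeR adjusted p = 8.88e-06), though a gene on the opposite strand overlaps 40.5% of its exon bases. EGR1 fell to 14.9 ± 1.36 CPM there (edgeR adjusted p = 4.62e-07).

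**Figure D5:**
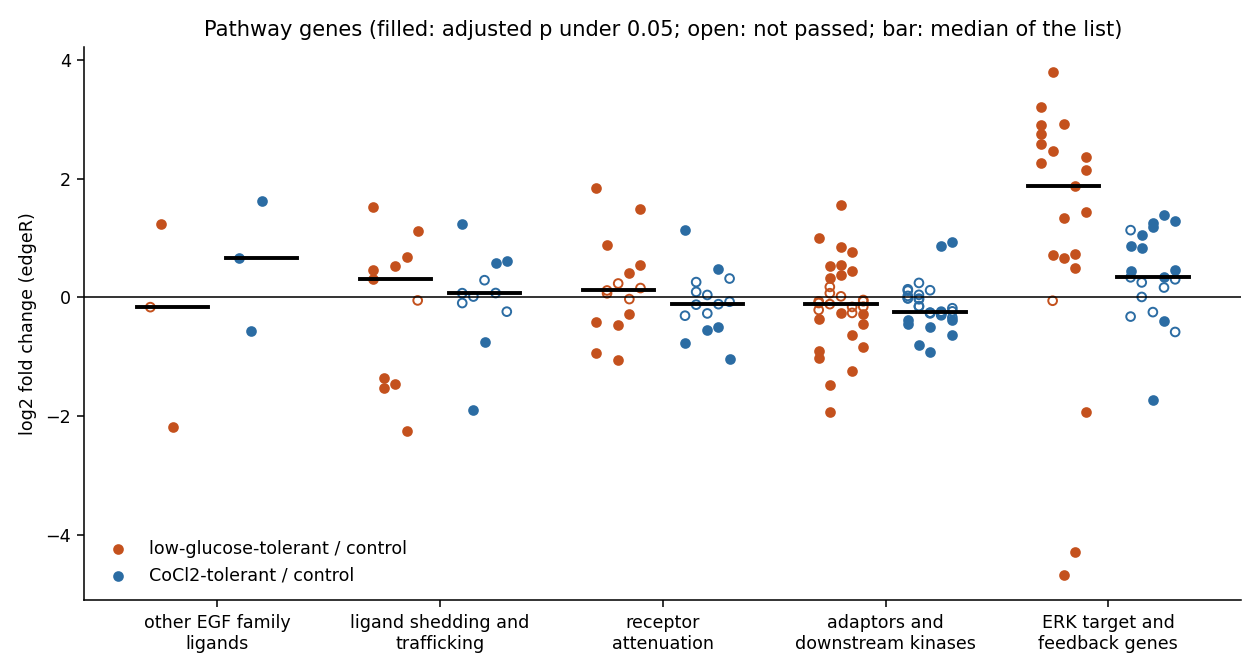
Log2 fold change against control of every tested gene of 5 pathway lists in the low-glucose-tolerant line (orange) and the CoCl2-tolerant line (blue), filled where edgeR's adjusted p was under 0.05, with the list's median as a bar. The ERK target and feedback genes have medians of 1.87 and 0.34, with EGR1 and FOS far below zero in the low-glucose-tolerant line.

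Genes with profiles like those of EREG and AREG were sought over the 9 libraries. The measure was the root-mean-square difference of log2 CPM after centring each gene on its mean. Nearest to EREG were VGF (a difference of 0.44), BHLHA15 (0.45), LAMP3 (0.46), KLHDC7B (0.56) and SPX (0.58). VGF was at 213 ± 30.9 CPM in low-glucose-tolerant, 5.65 ± 0.272 CPM in CoCl2-tolerant and 6.23 ± 0.201 CPM in control libraries. BHLHA15, LAMP3, KLHDC7B and SPX reached 5 CPM only in the low-glucose-tolerant line. CoCl2-tolerant and control means were 0.146 and 0.393 CPM for BHLHA15, 0.423 and 0.506 for LAMP3, and 0.0600 and 0.0320 for KLHDC7B. Those levels are near or under the 0.5 CPM added before taking logs, which limits their differences, so their closeness to EREG depends in part on that setting. Nearest to AREG were DNAJB9 (0.16), MAFF (0.17), SPOCD1 (0.17), SIGLEC15 (0.18) and ETV5 (0.19). DNAJB9 was at 92.9 ± 12.1 CPM in low-glucose-tolerant, 10.2 ± 1.56 CPM in CoCl2-tolerant and 6.05 ± 0.409 CPM in control libraries. The lists share no gene, and the nearest genes lay closer to AREG than to EREG. The measure includes scatter among replicates, which in CoCl2-tolerant libraries was wider for EREG (5.38 ± 1.94 CPM) than for AREG (5.77 ± 0.185 CPM). The part of that scatter in the closeness was not tested.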

How the data were processed

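RNA was measured in 9 libraries of HCT-15 cells and derived lines. The authors deposited a raw read count per Ensembl gene for each library. The submitters' processing notes name featureCounts, DESeq2 and GRCh38, without roles or versions. The aligner, gene annotation and strandedness of counting were not given in the sources used here. Of 36018 identifiers, 35938 had a symbol in a names table and 76 more in GENCODE release 29, which also gave positions, exon lengths and exon overlaps.

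Genes passing filterByExpr (17902) were tested with edgeR 4.0.16 in R 4.3.3. TMM scaling (factors 0.922 to 1.04) and a quasi-likelihood fit with 1 mean per group over all 9 libraries were used, and p-values were adjusted by Benjamini-Hochberg over all tested genes and called under 0.05. The standard error of a log2 fold change is its size over the root of F. CPM use totals times TMM factors. The procedure was tested on simulated counts. Replicate pairs differed by more than counting error (chi-squared per degree of freedom 2.28 to 70.6), so none was merged. Residuals of same-numbered libraries correlated at -0.416 to 0.204, so replicate numbers were not taken as pairs. Profile likeness used log2(CPM + 0.5) over genes with at least 5 CPM in their highest group.

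The 10 genes and the pathway lists were chosen with earlier results of these data known. Named pathway genes are up to 4 per list and line with the largest called changes and at least 1 CPM, of which not all are given values, and genes of small counts are named after their values were seen. Alternatives were DESeq2 1.42.0, other scalings, filters and fits, a replicate block and leaving out each library. CBLC, 3 intestinal markers, a leukocyte marker and the brefeldin A line were not analysed here. Tables were made with pandas 2.3.3 and numpy 2.4.6 under Python 3.11.15, and figures with matplotlib 3.10.9.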

Additional observations from a re-analysis of the deposited data

Results flagged for a closer look

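Among the family genes, 4 differed in direction between the tolerant lines, every library of each line lying on opposite sides of all control libraries. For EREG the log2 fold change of low-glucose-tolerant over CoCl2-tolerant was 5.13 and for ERBB3 it was 2.87, and neither difference was tested, since these genes were chosen with their levels known. For NRG2 it was 1.81 and for NRG4 it was -3.80. No test is given for these 2, since the flag itself required the lines to lie apart. NRG4 had 10 counts over the low-glucose-tolerant, 137 over the CoCl2-tolerant and 52 over the control libraries. EGFR in low-glucose-tolerant replicate 2 stood at 1087 CPM, against 619 and 561 CPM in the other libraries of that line. Groups of 3 are too small for an outlier test.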

How the results depend on the processing

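Counts of changed genes stayed within 1.5 times their values under every alternative run, as did the number of the 10 genes called in the CoCl2-tolerant line (6 or 7 in each). Member fold changes kept their direction wherever they were called, and the EREG fall in that line was the only member call lost, in 4 leave-one-out fits. With library totals in place of TMM, the median of all genes in the low-glucose-tolerant line was -0.11, against -0.01. The values there were -1.36 for HBEGF and -0.36 for ERBB2, with like values under the filter of at least 5 CPM in 3 libraries (-1.36 and -0.35).

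Pathway list counts depended more on the settings. In the CoCl2-tolerant line, rises among the other EGF family ligands went to 1 with DESeq2 and with no filter, and to 0 at 5 CPM, where 1 gene was tested. At 5 CPM the falls in the low-glucose-tolerant line were 0 for those ligands and 0 for the 4q13.3 neighbours, and neighbours that fell in the CoCl2-tolerant line went to 1. In a fit of only the 2 groups compared, CoCl2-tolerant counts were 4 rises among attenuators, 16 falls among adaptors and kinases and 4 falls among ERK genes. Leaving out a library, ranges in the CoCl2-tolerant line were 1 to 2 rises and 0 to 1 falls for other ligands, 2 to 4 rises for attenuators, 3 to 11 falls for adaptors and kinases, 1 to 4 falls for ERK genes, and 1 to 3 rises and 1 to 3 falls for neighbours. In the low-glucose-tolerant line they were 3 to 6 falls for attenuators and 1 to 2 for neighbours. The cause was not tested.

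With a replicate block, 12118 genes changed in the low-glucose-tolerant and 6091 in the CoCl2-tolerant line, against 12394 and 6459 without it, and 11136 against 11440 between the lines. The same-numbered libraries share only a number, and the block ended no call among the 10 genes. Using the longest coding transcript as length, an alternative chosen after seeing the data, the EREG and AREG share of ligand messages was 49.1% in the low-glucose-tolerant, 6.47% in the CoCl2-tolerant and 7.47% in the control group. Of these shares and the EGFR shares of receptor messages, 5 moved by at least the SD of the main value. The low-glucose-tolerant EREG and AREG share did not. Depth limits ERBB4, EPGN, NRG3 and NRG4.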
